A study of Mus musculus with 2 samples.

Results

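Cluster 5 (C5) comprised the cells carrying number 5 in the clustering that the authors deposited at resolution 0.5, and it held 1568 of 24343 cells. These cells came from spleens of female C57BL/6 mice of 8 weeks, either wild type (WT, 663 cells of C5) or lacking the transcription factor Batf3 (Batf3-/-, 905 cells of C5). Spleens of each genotype were pooled, depleted of T and B cells, sorted as live CD11c+ MHCII+ cells and stained with 11 oligonucleotide-tagged antibodies before droplet sequencing (CITE-seq). Per the paper, WT mice came from the Animal Resources Centre, while Batf3-/- mice came from Jackson Laboratories and were bred in house. There was 1 library for each genotype and the experiment was performed once. Genotype, source of the mice, library and pool therefore cannot be told apart, and no test between genotypes was possible. All intervals below are 95% intervals for counting error alone. C5 was set against cluster 0 (C0), the largest group of non-cycling type 2 conventional dendritic cells (cDC2) with 3176 WT and 2961 Batf3-/- cells, and, where stated, against the other dividing cDC2 clusters C7 and C10.

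Conventional dendritic cells of the spleen turn over within days and part of the pool divides locally. Before a cell copies its DNA, the 6 proteins Mcm2 to Mcm7 are loaded as rings onto replication origins by the origin recognition complex with Cdc6 and Cdt1, and in S phase these rings become the core of the helicase that opens the double strand. The genes for this machinery are switched on by E2F factors late in G1, while genes of the mitotic apparatus are switched on later. Sirpa encodes the inhibitory receptor CD172a, which marks cDC2 and is scarce on type 1 cells (cDC1).

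Mcm3, the replication marker given for C5, was higher in it than in C0, and Sirpa, the cDC2 marker, was near the level of C0. The level of a gene is its summed unique molecular identifiers (UMIs, counted transcripts) per 1000000 UMIs of the cluster and library (CPM). Mcm3 stood at 281 CPM in WT and 249 CPM in Batf3-/- C5, against 18.6 and 14.1 CPM in C0. Sirpa stood at 187 and 211 CPM in C5 and at 207 and 247 CPM in C0. Xcr1, the chemokine receptor of cDC1, was at 3.70 and 2.34 CPM in C5, against 509 CPM in the cDC1 cluster C4 of WT. With each cell thinned to 1000 UMIs, a Sirpa UMI was held by 14.9% and 19.0% of C5 cells and by 1.41% of WT C4 cells, and an Xcr1 UMI by 0.452% and 0.442% of C5 cells and by 38.9% of WT C4 cells. The deposited cell cycle label was S in 643 of 663 WT cells of C5 (97.0%, 95.4 to 98.1) and in 830 of 905 Batf3-/- cells (91.7%, 89.7 to 93.4), against 8.22% and 6.15% of C0. Clusters, phase labels and the levels given here came from the same transcripts, so the comparison of C5 with C0 is a description. When each cell was thinned to 2000 UMIs and scored anew, 88.1% and 84.9% of C5 cells were labelled S, against 19.7% and 18.8% of C0. Transcripts of histones and of Ccna2, the cyclin of S phase progression, were low in C5 relative to C7, as described further on, so the cells are called C5 here.

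The libraries held 122530055 UMIs in WT and 114517073 in Batf3-/-, of which 7024367 and 10672064 were in C5. The reference-based cell type deposited with each cell was dendritic cell for 662 of 663 WT and 896 of 905 Batf3-/- cells of C5. Of the cell barcodes, 56 occurred in both libraries, and 0 of these were C5 cells in both. A doublet caller (Scrublet) marked 616 WT cells (5.04%) and 1858 Batf3-/- cells (15.3%), and in C5 it marked 11 WT cells (1.66%) and 237 Batf3-/- cells (26.2%). All cells were kept, and values without the marked cells stand beside some of the results that they move.

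Promoters of 4 MCM genes carried the letters that E2F factors are known to bind. They are shown because the MCM genes had the highest median ratio of C5 over C0 among the lists compared and are classical targets of these factors. Each window runs from 250 bases before to 50 bases after the gene start in RefSeq on GRCm38.p6, the build of the deposited data, and is written 5′ to 3′ on the strand of the gene with the matching letters in capitals. The letters searched, on both strands, were TTTGGCGC, TTTCCCGC, TTTGCCGC and TTTCGCGC.
Mcm3 (chr1:20820263-20820562, minus strand): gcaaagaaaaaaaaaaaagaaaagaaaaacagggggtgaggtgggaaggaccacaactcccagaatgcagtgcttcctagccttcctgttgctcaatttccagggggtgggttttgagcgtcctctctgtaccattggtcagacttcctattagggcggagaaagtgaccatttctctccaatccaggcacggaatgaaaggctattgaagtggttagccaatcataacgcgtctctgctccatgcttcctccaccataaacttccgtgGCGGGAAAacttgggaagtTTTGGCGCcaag
Mcm5 (chr8:75109259-75109558, plus strand): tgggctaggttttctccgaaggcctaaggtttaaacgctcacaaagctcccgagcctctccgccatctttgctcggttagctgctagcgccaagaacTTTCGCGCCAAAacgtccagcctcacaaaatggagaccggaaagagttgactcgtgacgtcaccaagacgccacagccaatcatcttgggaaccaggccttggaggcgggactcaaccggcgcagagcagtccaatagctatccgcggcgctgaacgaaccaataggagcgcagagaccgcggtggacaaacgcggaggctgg
Mcm6 (chr1:128359656-128359955, minus strand): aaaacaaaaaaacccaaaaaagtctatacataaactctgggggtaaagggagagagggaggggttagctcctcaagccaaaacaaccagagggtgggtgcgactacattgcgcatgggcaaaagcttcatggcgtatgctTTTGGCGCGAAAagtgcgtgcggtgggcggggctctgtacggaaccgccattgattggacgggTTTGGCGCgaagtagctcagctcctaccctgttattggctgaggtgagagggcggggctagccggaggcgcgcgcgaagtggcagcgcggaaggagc
Mcm7 (chr5:138171834-138172133, minus strand): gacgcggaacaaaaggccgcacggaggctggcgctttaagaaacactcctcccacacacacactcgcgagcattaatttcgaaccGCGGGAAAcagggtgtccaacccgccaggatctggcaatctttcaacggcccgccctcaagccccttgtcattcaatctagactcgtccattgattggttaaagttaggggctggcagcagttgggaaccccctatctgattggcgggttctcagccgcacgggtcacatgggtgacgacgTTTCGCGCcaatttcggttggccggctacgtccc
With overlapping matches counted, Mcm6 held 3 and Mcm3, Mcm5 and Mcm7 each held 2, and in Mcm5 and Mcm6 a match on one strand overlapped a match on the other. Of the 6 MCM genes 5 had a window in the table, and 4 of these 5 held a match. A second window of Mcm7, at another start, and the window of Mcm2 held none. Among all 27025 genes with a window 704 held a match (2.61%). These do not cover every gene, as the windows of a chromosome were left out of the search. They also include genes not measured here, as the data hold 17751 genes. The share among the 2706 genes compared was not computed. Among the 82 genes that were at least 2-fold higher in C5 than in C0 (3.03% of 2706 genes compared), 70 had a window and 21 of the 70 held the letters. The cell cycle homology region, TTTGAA or TTCGAA on either strand, which is typical of genes switched on in G2 and M, was found in 13 of the same 70 genes (18.6%) and in 21.7% of all genes with a window. It was found in 35 of the 46 genes with a window on the list of G2/M genes (76.1%). The letters CCAAT, also searched on both strands, were found in 47 of the same 70 genes (67.1%). They were found in 41.1% of all genes with a window. A match is a description of the letters and not evidence of binding in these cells.

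The helicase genes were higher in C5 than in C0 throughout, and their median log2 ratio of 3.93 in WT and 3.91 in Batf3-/- was the highest of the 31 lists compared. Together the 6 MCM genes stood at 1177 CPM (1152 to 1203) in WT C5 and 1072 CPM (1052 to 1091) in Batf3-/- C5, against 84.4 and 76.3 CPM in C0, a log2 ratio of 3.80 (3.73 to 3.88) and 3.81 (3.74 to 3.89). All 6 of 6 were at least 2-fold higher in both libraries, where 6.30% of the 11158 genes with at least 20 UMIs in each library were. Mcm5 stood at 188 CPM in WT C5 and 9.86 CPM in WT C0 (log2 ratio 4.25, 4.04 to 4.47), and at 182 and 10.9 CPM in Batf3-/- (4.06, 3.86 to 4.26). Mcm4, the lowest of the 6 in fold, stood at 110 and 108 CPM in C5 and at 12.1 and 11.2 CPM in C0.

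**Figure D1:**
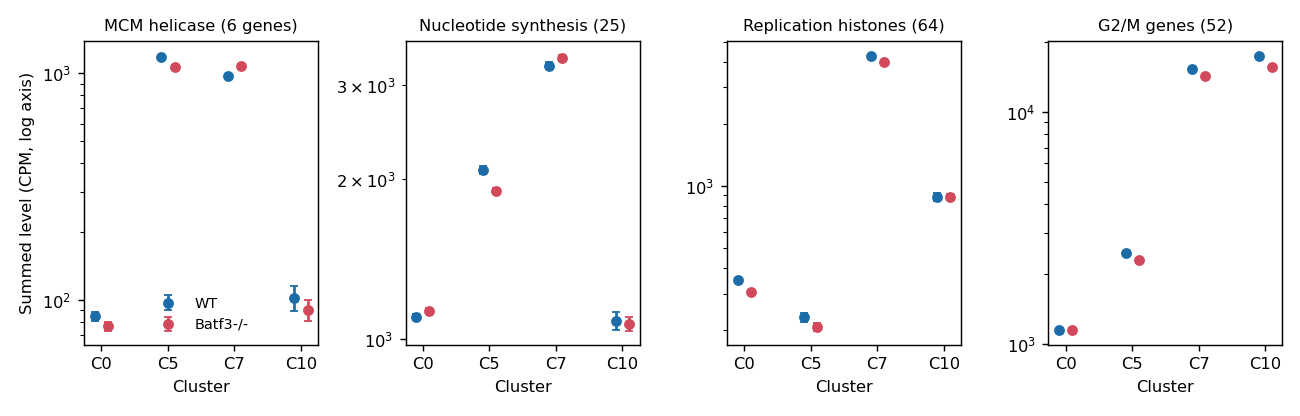
Summed level of 4 gene lists (CPM, log axis) in clusters C0, C5, C7 and C10 of the WT (blue) and Batf3-/- (red) library, with exact Poisson 95% intervals that are mostly smaller than the points. MCM transcripts in C5 reached the level of C7 (1177 and 974 CPM in WT), whereas histone transcripts in C5 (230 CPM in WT) lay below C0 (349 CPM) and far below C7 (4251 CPM).

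MCM transcripts were spread over most cells of C5. When each cell was thinned to 2000 UMIs, 86.7% of WT and 83.1% of Batf3-/- C5 cells held a UMI of at least 1 MCM gene, against 14.4% and 12.4% of C0 cells. At least 3 of the 6 genes were seen in 30.5% (27.0 to 34.2) and 25.7% (22.9 to 28.7) of C5 cells, and in 5 of 3167 and 2 of 2936 C0 cells. C7 cells were close to C5 in this measure, with 24.0% and 28.7%. Thinning was needed since C5 cells were deeper, with a median of 9919 UMIs in WT and 11116 in Batf3-/- against 6648 and 7187 in C0. Before thinning, the 5% of WT C5 cells with the most Mcm3 held 14.1% of its UMIs.

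**Figure D2:**
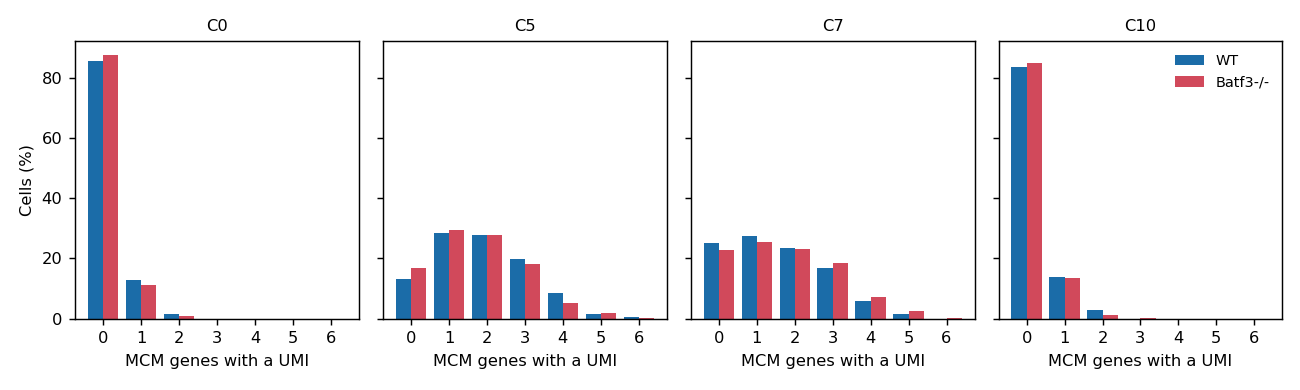
Share of cells (%) by the number of MCM genes, out of 6, with at least 1 UMI after thinning each cell to 2000 UMIs, in C0, C5, C7 and C10 of both libraries. In C5 86.7% of WT cells held at least 1 MCM gene, against 14.4% in C0 and 16.6% in C10.

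Genes of origin loading and licensing followed, but not as a block. Of 12 members 7 were at least 2-fold higher in both libraries, against 6.30% of all genes, and 5 were between the limits. Cdc6, the loading ATPase, was at 25.8 and 19.5 CPM in C5 and at 0.504 and 0.366 CPM in C0. Cdt1, which brings the MCM ring to the origin, was at 45.7 and 39.2 CPM against 3.71 and 3.29 CPM. Gmnn, the inhibitor that stops a second loading in the same cycle, was at 147 and 130 CPM against 21.4 and 22.3 CPM. Of the recognition complex itself, Orc1 (log2 ratio 5.48 and 3.71, at 6.12 and 3.00 CPM in C5) and Orc6 (2.46 and 2.21) were far apart between the clusters, whereas Orc4 was not (−0.18 and −0.15). Orc1 was nearly absent from C0, so the size of its ratio rests on few UMIs.

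All 13 factors that fire and hold the fork were higher in C5 in both libraries, 12 of them at least 2-fold in both against 6.30% of all genes, the other being Gins4 (log2 ratio 1.06 and 0.79). Cdc45, which joins the MCM ring to make the active helicase, was at 35.4 and 29.98 CPM in C5 and at 1.10 and 0.914 CPM in C0. Gins2, of the GINS complex that joins with it, was at 51.3 and 45.3 CPM against 2.43 and 3.06 CPM. The fork protection pair Timeless and Tipin was at 81.9 and 72.2 CPM and at 147 and 117 CPM in C5. In C0 Timeless was at 7.75 and 6.54 CPM and Tipin at 21.4 and 13.99 CPM.

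DNA polymerase subunits were at least 2-fold higher in 11 of 12 cases, against 6.30% of all genes. Prim1, the primase subunit that starts each strand, was at 68.0 and 67.6 CPM against 4.58 and 4.39 CPM in C0, and Pole, the catalytic subunit of the leading strand enzyme, at 25.8 and 25.1 CPM against 0.779 and 1.01 CPM. Pold4, the small subunit of polymerase delta, ran the other way with 88.4 and 97.2 CPM in C5 against 172 and 187 CPM in C0 (log2 ratio −0.96 and −0.95). The clamp and lagging strand genes were at least 2-fold higher in 14 of 17 cases, against the same share. Lig1, the ligase that joins Okazaki fragments, was the third by rank among genes that averaged 50 CPM or more, with 116 and 108 CPM against 3.21 and 3.79 CPM. Pcna, the sliding clamp, was already present in C0 at 40.3 and 32.5 CPM and reached 128 and 108 CPM in C5.

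Pclaf and Uhrf1 led the ranking of all genes whose levels averaged 50 CPM or more. Pclaf, a protein that binds the clamp, was at 115 and 112 CPM in C5 and at 2.25 and 3.38 CPM in C0, a 51.1-fold and 33.0-fold difference. Uhrf1, which recruits the maintenance methyltransferase Dnmt1 to newly copied DNA, was at 116 and 99.1 CPM, 52.8-fold and 30.1-fold above C0. Dnmt1 itself was at 91.3 and 90.0 CPM against 12.1 and 13.3 CPM. Lig1, Stmn1 and the 6 MCM genes completed the 10 highest, with Stmn1, a regulator of microtubules, at 378 and 357 CPM against 18.9 and 22.8 CPM. In all, 82 of 2706 genes were at least 2-fold higher in both libraries (3.03%) and 14 were at least 2-fold lower (0.517%). Of the 82 genes, 31 belonged to a replication list or to the S phase set used for scoring and 41 to no list used here, among them the splicing and export genes Srsf2, Alyref and Snrpd1 and the tubulins Tuba1b and Tubb5.

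**Figure D3:**
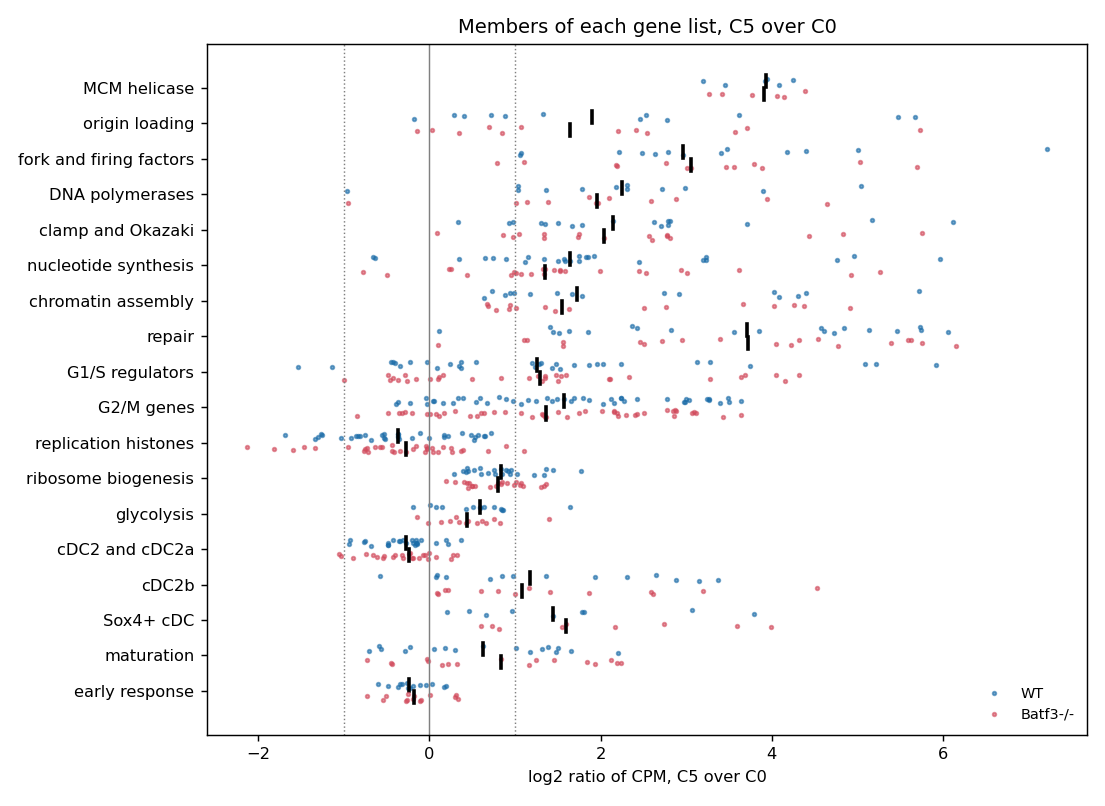
log2 ratio of CPM, C5 over C0, for each member with at least 20 UMIs in each library of 18 gene lists, WT in blue and Batf3-/- in red, with the median as a black bar. Dotted lines mark 2-fold. A gene without UMIs on one side is drawn at its bound against 3 counts. Replication lists lie to the right (MCM median 3.93 and 3.91), and the histone list lies left of 0 (−0.37 and −0.27).

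Most genes of nucleotide supply were higher in C5 than in C0. Of 25 members 17 were at least 2-fold higher in C5 than in C0 in both libraries, against 6.30% of all genes, and 8 were between the limits. Set against C7, 8 of the 25 were above it in C5 in both libraries and 12 below it, where 38.6% and 39.5% of 10550 genes were, and 4 were at least 2-fold below it, where 4.37% were. Rrm2, the regulated subunit of ribonucleotide reductase, was at 29.9 and 30.4 CPM in C5, at 0.963 and 2.47 CPM in C0 and at 417 and 434 CPM in C7. Tk1, thymidine kinase, was at 36.2 and 27.7 CPM in C5 and at 189 and 193 CPM in C7. Samhd1, which breaks down deoxynucleotides, was lower in C5 (329 and 304 CPM) than in C0 (511 and 521 CPM), and so was Rrm2b, the reductase subunit of resting cells (20.8 and 19.96 against 32.8 and 28.1 CPM).

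Replication-dependent histones were not raised in C5. The 64 measured genes summed to 230 CPM (219 to 242) in WT and 206 CPM (198 to 215) in Batf3-/- C5, below the 349 and 306 CPM of C0. Of the 35 members with at least 20 UMIs in each library none was at least 2-fold higher in both libraries, where 6.30% of all genes were. At least 2-fold lower were 4, where 1.42% of all genes were. In C7 the same genes summed to 4251 and 3965 CPM. Hist1h1b, a linker histone, was at 14.9 and 14.99 CPM in C5, at 9.49 and 8.04 CPM in C0 and at 672 and 653 CPM in C7. Most messages of these genes lack a poly(A) tail, and the libraries captured polyadenylated RNA, so only the captured fraction was compared. Nasp and Slbp, a carrier of free histones and the binding protein of histone messages, were both among the 82 genes, with Nasp at 171 and 152 CPM against 25.6 and 26.6 CPM. The chaperones Chaf1a (49.8 and 44.8 against 2.93 and 2.33 CPM) and Asf1b (27.2 and 27.5 against 1.38 and 1.69 CPM) were likewise higher in C5 than in C0.

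C5 and C7 differed by gene and not by an even factor. Below C7 in both libraries, where 39.5% of all genes were, lay 11 of 13 fork and firing factors and 10 of 12 polymerase subunits. So did 15 of 17 clamp and lagging strand genes and 16 of 16 chromatin assembly genes. Above C7 in both were 1, 1, 1 and 0 of these lists. The S phase set summed to 3265 and 2908 CPM in C5 and to 4545 and 4894 CPM in C7. The deposited label was S in 33.9% and 42.1% of C7 cells. Of the helicase, 4 MCM genes were above C7 in C5 in both libraries, namely Mcm2 (139 and 125 against 82.4 and 91.7 CPM), Mcm3, Mcm4 and Mcm6, whereas Mcm5 and Mcm7 were below it, where 38.6% of all genes were above and 39.5% below. Ung, the glycosylase that removes uracil from DNA, was at 83.1 and 67.7 CPM in C5 and at 27.5 and 34.1 CPM in C7. E2f1 was at 66.2 and 59.4 CPM in C5 against 51.0 and 51.1 CPM in C7, and at 4.95 and 4.62 CPM in C0. Of the 32 counted genes of the G1/S list 5 were above C7 in both libraries and 26 below it, where 38.6% and 39.5% of all genes were. Ccne2, a cyclin of S phase entry, was at 10.3 and 8.34 CPM in C5 and at 29.7 and 38.1 CPM in C7, and Ccna2 was at 2.99 and 4.12 CPM in C5, at 0.733 and 0.960 CPM in C0 and at 197 and 195 CPM in C7. E2f8, a repressor of E2F targets late in S phase, was at 12.8 and 9.75 CPM in C5 and at 83.3 and 81.8 CPM in C7. Of the 20 repair genes 19 were at least 2-fold higher in C5 than in C0, against 6.30% of all genes, and 8 of the 20 were at least 2-fold higher still in C7, where 4.37% of all genes were at least 2-fold higher than in C5.

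Mitotic transcripts were above C0 and far below C7 and C10. Of 47 G2/M genes with at least 20 UMIs in each library 28 were at least 2-fold higher in C5 than in C0, against 6.30% of all genes (median log2 ratio 1.58 and 1.36). None was 2-fold lower in both libraries, near the 1.42% of all genes that were. The 52 G2/M genes summed to 2460 and 2291 CPM in C5 and to 1153 and 1155 CPM in C0, with 15186 and 14239 CPM in C7 and 17307 and 15608 CPM in C10. Hmgb2, a chromatin protein that is also made outside mitosis, gave 885 and 797 CPM of the C5 sums. Mki67 was at 55.2 and 53.4 CPM in C5 and at 791 and 765 CPM in C7, and Ccnb1, the cyclin that drives entry into mitosis, at 1.85 and 2.34 CPM against 68.6 and 61.1 CPM. All 52 were below C7 in both libraries, where 39.5% of all genes were, and 51 of them at least 2-fold, where 4.37% were.

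Among genes that hold cells out of the cycle, Mxd4 was the lowest gene of C5 relative to C0. Mxd4, a repressor that competes with Myc for their common partner Max, was at 18.2 and 21.2 CPM in C5 against 85.4 and 96.6 CPM in C0 (log2 ratio −2.23, −2.50 to −1.97 in WT and −2.19, −2.39 to −1.99 in Batf3-/-). The G1/S list of 34 genes had 18 that were at least 2-fold higher in both libraries, against 6.30% of all genes. None was 2-fold lower in both, near the 1.42% of all genes that were. Another 14 were between the limits and 2 had too few UMIs. Cdk4 was at 188 and 176 CPM against 58.3 and 58.0 CPM. Its partner Ccnd1 differed little, with 1280 and 1438 CPM in C5 against 1301 and 1342 CPM in C0, whereas Ccnd2 was lower in C5 (42.1 and 49.1 against 122 and 98.1 CPM). The inhibitor Cdkn1b, p27, was at 80.7 and 80.6 CPM in C5 and 106 and 104 CPM in C0.

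When the cells of each library were ranked by the deposited S score and split into 4 equal bins, the MCM sum ran from 635 CPM in the lowest bin of WT to 1683 CPM in the highest, and from 566 to 1593 CPM in Batf3-/-. The lowest bin was above the 84.4 and 76.3 CPM of C0. The score is made from S phase genes, several MCM genes and Cdc6 among them, so gradients of replication genes follow from the ranking and are given as a description. Cdc6 was nearly absent from the lowest bin, at 1.27 and 1.17 CPM, and reached 65.4 and 52.1 CPM in the highest. Rrm2 went from 1.27 and 2.73 CPM to 72.2 and 90.6 CPM, and Ccna2 from 0 UMIs in the lowest bin of both libraries to 7.32 and 12.2 CPM. The histone sum did not follow, with 232 and 214 CPM in the lowest and 201 and 183 CPM in the highest bin, whereas the G2/M sum went from 1563 and 1523 CPM to 3680 and 3521 CPM.

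**Figure D4:**
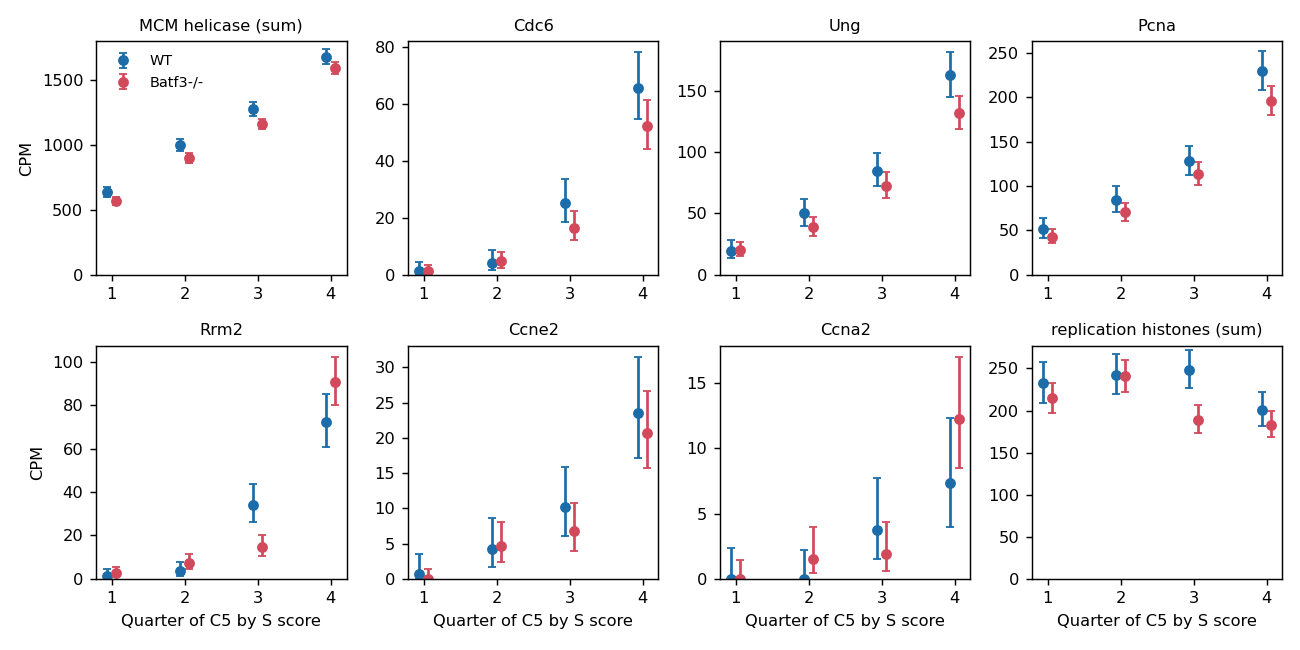
Level (CPM, linear axis from 0) of 6 genes, the MCM sum and the histone sum in 4 equal bins of C5 cells ranked by the deposited S score within each library, WT in blue and Batf3-/- in red, with exact Poisson 95% intervals. From the lowest to the highest bin the MCM sum goes from 635 to 1683 CPM and Cdc6 from 1.27 to 65.4 CPM in WT, while the histone sum goes from 232 to 201 CPM.

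The few C5 cells labelled G1, 18 in WT and 68 in Batf3-/-, lay between the groups. Their MCM sum was 358 and 373 CPM, below the 1198 and 1126 CPM of S-labelled C5 cells and above the 68.5 and 66.8 CPM of G1-labelled C0 cells. The 261 WT and 182 Batf3-/- cells of C0 labelled S had an MCM sum of 268 and 223 CPM, below that of C5 cells labelled G1. The phase labels rest on scores made in part from MCM genes, and the clusters on the same transcripts. This order therefore follows in part from the labels and is a description.

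All 23 ribosome biogenesis genes were above C0 in both libraries, where 43.0% of all genes were, and 5 were at least 2-fold higher, where 6.30% were. Their median log2 ratio was 0.83 and 0.80, where the median of all genes was 0.02 and 0.01. Nop58, a core protein of the complex that methylates ribosomal RNA, was at 156 and 138 CPM against 57.1 and 54.6 CPM. Ribosomal protein genes did not share this (median 0.02 and −0.02). Of 14 glycolysis genes 1, Tpi1, was at least 2-fold higher, near the 6.30% of all genes (122 and 114 against 39.0 and 43.3 CPM), and the list median was 0.59 and 0.44. Respiratory chain genes had a median of 0.25 and 0.23, and sterol synthesis genes 0.07 and 0.17. Early response genes, which also react to tissue handling, had a median of −0.24 and −0.18.

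Genes of the cDC2 profile were close to C0 in C5, mostly slightly lower. Of 25 genes on the list of cDC2 and of cDC2a, the splenic subset that depends on Notch2, none was 2-fold apart in both libraries, where 6.30% of all genes were higher and 1.42% lower, and 21 were below C0 in both, where 40.5% were (median −0.28 and −0.24). The MHC class II genes were nearly level, with H2-Ab1 at 8562 and 8567 CPM in C5 and 9526 and 8684 CPM in C0. Cd4 was at 42.3 and 36.7 CPM against 81.2 and 75.01 CPM, Itgam (CD11b) at 29.9 and 29.7 against 50.3 and 55.2 CPM, and Dtx1, a Notch target, at 163 and 95.7 against 261 and 199 CPM. Flt3, the receptor for the main growth factor of these cells, was slightly higher in C5 (132 and 131 against 115 and 109 CPM). Lower levels were also seen for Mmp12, the macrophage elastase (43.8 and 45.7 against 109 and 112 CPM), and Adgre1, which encodes F4/80 (39.4 and 47.5 against 95.8 and 117 CPM). Gm34084, Slc12a2, Slfn5, Adgrl3, Trim30b, 9530059O14Rik and Scimp completed the 10 lowest, with log2 ratios between −1.67 and −1.13.

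Some transcripts of other dendritic cell states were higher in C5 than in C0, and several of them were also higher in C7 than in C0. Lyz2, a lysozyme gene on the cDC2b list, was at 93.8 and 103 CPM in C5, at 19.0 and 16.8 CPM in C0 and at 3149 and 2747 CPM in C2. Of its C5 UMIs 89.7% and 86.1% lay in the 5% of cells with most. Lyz2 does not single out C2, as before thinning 82.8% of WT C4 cells and 76.3% of WT C2 cells held a UMI. In C7 it was held by 19.8% and 20.4% of cells, and in C5 by 15.4% and 19.8%. Ccr2, a chemokine receptor found in C2 and C3, was at 17.5 and 23.0 CPM against 1.70 and 2.51 CPM in C0 and 189 and 140 CPM in C2. Before thinning, a Ccr2 UMI was held by 6.03% and 10.2% of C5 cells and 9.48% and 12.4% of C7 cells. It was held by 45.9% and 41.4% of C2, 32.0% and 36.9% of C3 and 22.6% of WT C4 cells. Of its C5 UMIs 95.1% and 78.4% lay in the 5% of cells with most, which follows largely from low detection, and in C0 100% did. Sox4, the transcription factor that marks C3, was at 130 and 174 CPM against 47.9 and 57.6 CPM in C0 and 533 and 574 CPM in C3. Of its C5 UMIs 59.2% and 49.6% lay in the 5% of cells with most, and of its C0 UMIs 75.4% and 67.8% did. At 1000 UMIs a cell, 9.50% and 10.8% of C5 cells held a Sox4 UMI, 3.81% and 4.81% of C0 cells and 36.4% and 34.1% of C3 cells. Fabp5, a fatty acid binding protein of maturing cells, was at 215 and 391 CPM against 46.8 and 82.9 CPM in C0 and 2411 and 2816 CPM in C1, and 43.5% and 45.4% of its C5 UMIs lay in such cells. In all, 6 of the 14 measured cDC2b genes, 5 of 9 Sox4+ cDC genes and 8 of 17 maturation genes were at least 2-fold above C0 in both libraries, where 6.30% of all genes were. The cDC2b sum was 2346 and 3038 CPM in C5, 2070 and 2404 CPM in C7 and 1714 and 2024 CPM in C0. The maturation sum was 1268 and 1794 CPM in C5, 1163 and 1440 CPM in C7 and 953 and 1130 CPM in C0. The Sox4+ cDC sum was 375 and 478 CPM in C5, 296 and 265 CPM in C7 and 198 and 205 CPM in C0. Not all members were above C0, as 5 of the 17 maturation genes were below C0 in both libraries, where 40.5% of all genes were. Cd209a, on the cDC2b list, had a log2 ratio of −0.58 and 0.10. Without the cells marked as doublets the median log2 ratio of the maturation list in Batf3-/- was 0.60 in place of 0.84.

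Markers of T cells, NK cells, neutrophils and erythroid cells were scarce. Summed levels in C5 were 3.13 and 1.87 CPM for 4 T cell genes, 0.569 and 0.562 CPM for 6 NK cell genes, 2.70 and 3.00 CPM for 4 neutrophil genes and 11.7 and 14.5 CPM for 4 haemoglobin genes. In C0 the same sums were 2.15 and 2.47, 0.733 and 0.731, 3.62 and 4.57, and 14.4 and 14.2 CPM. The B cell sum was 67.6 and 82.9 CPM in C5 and 50.2 and 68.1 CPM in C0 (log2 ratio 0.43, 0.27 to 0.59 and 0.28, 0.16 to 0.41), nearly all of it from Cd79b and Ms4a1, with Cd79a at 1 UMI in WT and 0 in Batf3-/-. The sum of 11 monocyte or macrophage genes was 2217 and 2659 CPM in C5 and 1525 and 1847 CPM in C0, of which S100a4 gave 2011 and 2437 CPM in C5. In C7 this sum was 1957 and 2187 CPM. Of 8 of these genes with at least 20 UMIs in each library 5 were at least 2-fold higher than in C0, against 6.30% of all genes, and Adgre1 was at least 2-fold lower. C1qa was at 14.4 and 7.03 CPM in C5 against 0.917 and 0.457 CPM in C0, and Ly6c2 at 2.70 and 11.6 CPM against 0.825 and 0.183 CPM, while Ms4a3 had no UMI in either cluster. The pDC sum was 289 and 343 CPM in C5 against 209 CPM in both libraries of C0. The sum of 9 cDC1 genes was 406 and 318 CPM in C5, 400 and 288 CPM in C0 and 5256 CPM in WT C4. Of 8 cDC1 genes with at least 20 UMIs in each library 1, Cd8a, was at least 2-fold higher than in C0, against 6.30% of all genes. Before thinning, 9.50% and 8.51% of C5 cells held a Cd8a UMI, against 4.44% and 1.59% of C0 cells. Without the marked doublets the median log2 ratio of the monocyte or macrophage list in Batf3-/- was 1.03 in place of 1.81. The part of such cells in the results was not tested.

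Antibody tags, which took no part in the clustering, were matched to antibodies only for CD4 and CD8A, since the rows of the tag table carry no names and the other rows could not be assigned without doubt. The median CD4 tag count per cell was 34 in WT C5 (quartiles 26 and 43) and 35 in Batf3-/- C5 (28 and 45). It was 38 and 39 in C0 and 27 in the cDC1 cluster C4 of WT. Per the paper, every antibody gave a substantial background, and its level was taken from C4 for CD4 and from C0 for CD8A. The counts given here include background, and its part in each value was not tested. The median CD8A tag count was 40 and 42 in C5 and 41 in both libraries of C0, and 122 in the cDC1 cluster C4 of WT. A median does not show the minority of C5 cells that held Cd8a transcripts. The total of tags per cell was the same in C5 and C0 of WT, with a median of 508 in each, although C5 cells held more transcripts.

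C5 was a larger share of the Batf3-/- library, at 7.47% (7.01 to 7.95) against 5.42% (5.03 to 5.84) in WT. The cDC1 clusters made up 29.1% of the WT and 6.54% of the Batf3-/- library. Among cells of the Sirpa+ cDC2 clusters alone C5 was 8.25% (7.66 to 8.87) in WT and 8.28% (7.77 to 8.82) in Batf3-/-, with intervals that overlap. Without the marked doublets C5 was 5.62% of the WT and 6.51% of the Batf3-/- library. Within the dividing cDC2 clusters C5, C7 and C10, C5 was 47.3% (44.6 to 49.9) of WT and 50.03% (47.7 to 52.4) of Batf3-/- cells, and C7 was 35.4% (32.9 to 37.9) and 30.8% (28.7 to 33.0).

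Batf3 itself was at 185 CPM (176 to 196) in WT C5, level with the 180 CPM of WT C0, and it was at 238 CPM in the cDC1 cluster C4 of WT. In Batf3-/- C5 10 UMIs were left, 0.937 CPM (0.449 to 1.72). Of 2725 genes that averaged 50 CPM or more in C5, 16 were at least 1.5-fold higher in Batf3-/- (0.587%) and 13, Batf3 among them, at least 1.5-fold lower (0.477%). Without the marked doublets 14 genes were higher and 14 lower, and these held 12 of the 16 and 11 of the 13. None of the 58 genes of the replication lists that averaged 50 CPM or more was among the 29 genes called with all cells, a count near the share over all genes. The MCM sum was 0.910-fold in Batf3-/- (log2 ratio −0.14, −0.18 to −0.09), and each of the 6 MCM genes lay between −0.23 and −0.03. In C0 the MCM sum differed by −0.15 as well.

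The genes highest in Batf3-/- C5 were led by Anxa3, a membrane-binding annexin, at 44.7 CPM in WT and 99.9 CPM in Batf3-/- (log2 ratio 1.16, 0.98 to 1.35). Il4i1, an amino acid oxidase of mature cells, was at 100 and 197 CPM (0.97, 0.85 to 1.10). Fscn1, the actin bundler of dendrites, was at 38.4 and 70.0 CPM (0.86, 0.66 to 1.07), and Fabp5 had the same log2 ratio of 0.86 (0.78 to 0.95). Aif1 (0.83), Mndal (0.75), Gsr (0.75) and Ifitm1 (0.71) followed. Without the marked doublets Aif1 was at 0.50, below the 1.5-fold limit, and Anxa3 at 1.35. Of the 16 genes 4, Fabp5, Marcksl1, Fscn1 and Il4i1, were on the maturation list of 20 genes. That is 4 of its 10 members with at least 50 CPM, where 0.587% of all genes compared were as much higher. These 10 had a median of 0.33. The maturation sum was 9945 and 11016 CPM in C1, which held 721 WT and 1845 Batf3-/- cells. Any part of C1 transcripts in the genotype ratios of C5 was not tested. After Batf3, the chemokine Ccl5 was the lowest, with 390 CPM in WT and 150 CPM in Batf3-/- C5 (−1.38, −1.47 to −1.29). Slamf8 (−0.95, and −1.32 without the marked doublets), Efhd2 (−0.92), Nup210 (−0.85), Fem1c (−0.78), Dtx1 (−0.77), Gm47283 (−0.76) and Nr4a1 (−0.67) followed.

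The same libraries were compared in C0, so its values are not independent of those of C5. Of the 16 genes higher in Batf3-/- C5, 11 were at least 1.5-fold higher in Batf3-/- C0, where 0.624% of the 2725 genes were. Of the 13 lower genes, 6 were at least 1.5-fold lower in C0, where 0.404% were. All 29 had the same sign in C0, where 56.1% of the genes were higher and 43.9% lower in Batf3-/-. Ccl5 was at 879 and 313 CPM in C0 (log2 ratio −1.49). Fscn1 was an exception in size, with 13.5 and 15.3 CPM in C0 (0.18), and Dtx1 differed less in C0 (−0.40) than in C5 (−0.77). Whether the genotype ratios differ between C5 and C0 was not tested. Seen the other way, no gene of 2706 was at least 1.5-fold apart between C5 and C0 in opposite directions in the libraries, and 5 genes had log2 ratios that differed by at least 1.5-fold between them. These were Batf3, Uhrf1 (5.72 in WT and 4.91 in Batf3-/-), Pclaf (5.68 and 5.04), Glrx (−0.48 and 0.14) and Cd209a (−0.58 and 0.10). The ratios of Uhrf1 rest on 48 and 72 UMIs in C0.

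**Figure D5:**
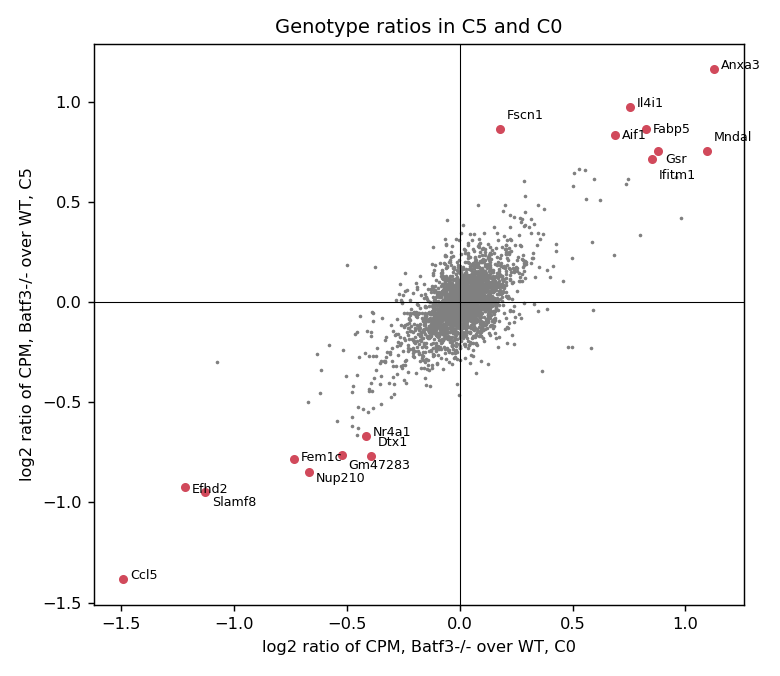
log2 ratio of CPM, Batf3-/- over WT, in C0 (x axis) and in C5 (y axis) for the genes other than Batf3 that averaged 50 CPM or more in C5, with the 8 highest and, Batf3 apart, 8 lowest in C5 in red. The 16 red genes lie on the same side of 0 in both clusters, and Fscn1 lies nearest to 0 in C0 (0.18).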

How the data were processed

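Splenic CD11c+ MHCII+ cells of pooled WT and Batf3-/- mice were measured in 2 libraries, 1 for each genotype. Per the labels and the study's methods, reads were demultiplexed with bcl2fastq 2.2.0 and counted with Cell Ranger on GRCm38 (mm10), the libraries were brought to like depth, and Seurat 3.0.5 was used to filter, cluster and score the cells. The tools and versions are from the submitters' processing notes, in which no role or order is given. The authors deposited raw counts (UMIs) of genes and of antibody tags for each cell, the tag levels as natural log centred ratios, S and G2M scores, mitochondrial shares written as a fraction, and the cluster, phase and cell type of each cell. Evening of depth by the authors limits comparisons of UMIs per cell between libraries.

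Counts were summed over the cells of a cluster and library and divided by their total to give CPM. Poisson intervals of CPM, binomial intervals of ratios and Clopper-Pearson intervals of shares were exact, at 95%, and cover counting error only. With 1 library for each genotype no test was made and no p-value is given. Genes were counted between C5 and C0 when at least 2-fold apart in the same direction in both libraries, and between genotypes when at least 1.5-fold apart, with a mean of at least 50 CPM. List members were counted with at least 20 UMIs in each library. Genes named were the 10 highest and 10 lowest by the smaller of the ratios between C5 and C0, the 8 highest and 8 lowest between genotypes, and members of the lists chosen for their roles; other genes were chosen after their values were seen. The members and lists were chosen with earlier results of these data known. Cells were thinned to 1000 UMIs, or 2000, to compare shares of cells. A gene without UMIs on one side was set to its bound against 3 counts. Doublets were marked by Scrublet in scanpy 1.11.5 at an expected rate of 10%, and the cells were kept. At an expected rate of 5% the caller marked 583 WT and 0 Batf3-/- cells, so its marks for Batf3-/- depend on that rate. Tag rows carry no names, and 2 of 11 were matched to antibodies by their correlation with transcripts. Alternatives were other denominators, CPM minimums, thinning depths, scaling by a trimmed mean of ratios, means over cells, and leaving out doublets. The scripts were tested on simulated data and used Python 3.11.15, numpy 2.4.6, scipy 1.17.1, pandas 2.3.3 and matplotlib 3.10.9.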

Additional observations from a re-analysis of the deposited data

How the results depend on the processing

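Of 258 values recomputed under another setting, 229 stayed within the limits set for them and 29 moved. List medians gave 201 of the 229 and 7 of the 29. They were judged against the median interval limits of single genes, so the total says little about the other results. In 6 cases the sign changed, all for list medians of at most 0.020 in the report's setting (cDC1 and ribosomal protein genes in WT, erythroid genes in Batf3-/-), and no value past a fold limit changed sign. The share of C5 was 8.25% in WT and 8.28% in Batf3-/- of the Sirpa+ cDC2 clusters, 7.65% and 7.99% of cells outside the cDC1 clusters, and 6.51% of Batf3-/- without marked doublets. The S-labelled share of C5 was 88.1% and 84.9% with phases recomputed at 2000 UMIs. With a minimum of 20 CPM, 169 genes were higher and 37 lower in C5 than in C0, and 30 were higher and 34 lower in Batf3-/-. With a minimum of 100 CPM these counts were 31 and 3, and 10 and 5. Fewer or more genes enter under these minimums. Among list medians, that of the MCM genes in WT was 4.15 against G1-labelled C0 cells. Without doublets the Batf3-/- medians were 0.60 for maturation and 1.03 for monocyte or macrophage genes, whose medians were 1.49 in WT and 1.14 in Batf3-/- as a mean over cells. Scaling by a trimmed mean of ratios gave −0.31 for early response genes in WT, and −0.049 in WT and −0.071 in Batf3-/- for ribosomal protein genes. Thinned to 2000 UMIs, the share of C5 cells with a UMI was 40.8% and 39.2% for Mcm3, 31.9% and 36.0% for Sirpa, 4.68% in WT for Lyz2, and 13.3% and 19.8% for Sox4, as deeper cells hold more UMIs. The cause of the other moves was not tested. No paired analysis was possible because each genotype had 1 library, and for the same reason no replicate could be left out. Depth limits genes at a few CPM, where intervals are wide.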
